A study of Homo sapiens with 8 samples.

Results

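The genes described here are 6 genes of the epithelial surface: the proteases ST14 (matriptase) and PRSS8 (prostasin), their inhibitor SPINT1, the transcription factors ELF3 and EHF, and the splicing factor ESRP2. They were chosen by symbol, and each had 1 entry among the 9245 RefSeq mRNA entries deposited. The cells were SK-BR-3, a human breast cancer cell line in long use that carries extra copies of ERBB2, in which mir-141 and mir-200c had been disrupted with TALENs, pairs of designed nucleases. There were 4 groups of 2 libraries: mir-141 knockout (clone 23 in set 1, clone 10 in set 2), mir-200c knockout (clones 11 and 29), knockout of both microRNAs (clones 55 and 61, called double knockout here) and wild type. Every group had 1 library in each experimental set, so each knockout is represented by a single clone per set, and clone and set cannot be told apart.

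Matriptase is a transmembrane serine protease and prostasin a serine protease held to the membrane by a lipid anchor. They are known to promote each other's activation in epithelia, and the Kunitz inhibitor HAI-1, the product of SPINT1, keeps both in check. ELF3 and EHF are ETS transcription factors restricted to epithelia, and ESRP2 is an RNA-binding protein that promotes epithelial exon choices. The microRNAs of the mir-200 family are known for repressing ZEB1 and ZEB2, which in turn repress epithelial genes.

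The mature 3p strands of the deleted microRNAs are shown because their seeds (bases 2 to 8, in capitals) define the sites searched for in the 6 genes. Both lie on the plus strand of chromosome 12 (RefSeq, GRCh38.p14), miR-200c-3p at chr12:6963742-6963764 and miR-141-3p at chr12:6964155-6964176, and their seeds differ at 1 base.
miR-141-3p: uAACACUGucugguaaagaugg
miR-200c-3p: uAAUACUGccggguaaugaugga

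None of the 6 genes carried a match to either seed in the annotated 3' UTR of its deposited transcript. The searched UTRs (GENCODE 29) were 553 bases long in ST14, 576 in PRSS8, 680 in SPINT1, 1865 in ELF3, 2126 in EHF and 1100 in ESRP2, against a median of 1005.5 over 8958 entries with a UTR. The 7-base match of miR-141-3p, CAGTGTT, was present in 18.1% of those UTRs and that of miR-200c-3p, CAGTATT, in 16.2%. Absence of these letters says nothing of other routes by which the microRNAs could reach the genes.

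Promoter windows (250 bases before to 50 after an annotated start) were available for 3 of the 6 genes, ELF3, EHF and SPINT1. They were searched on both strands for the ZEB box CAGGTG, the ETS motif CCGGAAG and the Grainyhead motif AACCGGTT, which 20.6%, 10.3% and 0.134% of 35116 windows hold. A ZEB box was found in the ELF3 window and in 1 of the SPINT1 windows. The EHF windows held none of the motifs, and no window of these genes held the ETS or the Grainyhead motif. The windows with a match are printed with it in capitals (RefSeq, GRCh38.p14, plus strand), at chr1:202010337-202010636 for ELF3 and chr15:40844227-40844526 for SPINT1. A match is a sequence feature, and binding was not measured.
ELF3 promoter: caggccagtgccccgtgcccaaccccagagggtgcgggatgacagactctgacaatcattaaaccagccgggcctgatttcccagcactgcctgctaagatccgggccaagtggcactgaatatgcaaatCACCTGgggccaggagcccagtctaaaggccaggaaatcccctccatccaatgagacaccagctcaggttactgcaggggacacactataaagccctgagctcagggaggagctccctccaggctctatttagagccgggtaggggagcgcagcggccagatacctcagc
SPINT1 promoter: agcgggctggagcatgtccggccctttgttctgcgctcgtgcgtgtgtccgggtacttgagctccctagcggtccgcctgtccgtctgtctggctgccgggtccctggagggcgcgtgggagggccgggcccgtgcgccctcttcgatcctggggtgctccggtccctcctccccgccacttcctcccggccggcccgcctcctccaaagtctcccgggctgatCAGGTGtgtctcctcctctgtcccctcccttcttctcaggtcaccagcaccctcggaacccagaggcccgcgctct

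Each value is a log2 ratio, knockout clone over same-set wild type, so the wild type stands at 0 by construction, and 1 wild type is shared by the 3 clones of a set. Levels and sequencing depth could not be read from the ratios, so the abundance of the 6 mRNAs is unknown. Across all entries, the 9 Pearson correlations between a clone of set 1 and a clone of set 2 lay between −0.00224 and 0.0105. Between chromosomal neighbours the entries had Spearman correlations of 0.0749 to 0.112 in the clones of set 1 and −0.00916 to 0.0136 in those of set 2. Whether every set 2 value stands beside its own gene name was not tested. The values of set 1 are therefore given first, those of set 2 as listed, and every estimate over both sets carries this limit. All 8 fixed markers of luminal ERBB2-amplified breast epithelium had an entry, with medians of −0.03, 0.07 and −0.10 in set 1 clones lacking mir-141, mir-200c and both microRNAs and none beyond 0.5. In set 2 as listed their medians were 0.04, −0.02 and −0.05, and GRB7 (0.73) and KRT8 (−0.51) were beyond 0.5 in the mir-141 knockout. Of 8 fibroblast and 8 blood cell markers, 1 and 3 had an entry, PTPRC not among them, and the blood cell markers did not move together. In the mir-200c knockout of set 1, LCP1 had 1.05, CORO1A −0.54 and CD68 −0.48, and the 3 genes had a median of −0.01 in the mir-141, −0.48 in the mir-200c and −0.44 in the double knockout.

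In set 1 no ratio of the 6 genes exceeded 1.42-fold, the value of EHF in the double knockout, and these genes had log2 medians of 0.11 without mir-141, 0.07 without mir-200c and 0.30 without both, where the medians of all entries were −0.01, −0.02 and −0.03. Above 0 lay 5, 3 and 5 of the 6 genes, against 48.1%, 48.0% and 46.3% of entries. No gene was beyond 0.5 in either direction in the mir-141 knockout, where 3.55% of entries were above 0.5 and 2.63% below −0.5. None was beyond it in the mir-200c knockout either, where 9.05% were above and 7.92% below. In the double knockout EHF, at 0.501, was just above 0.5, with 7.36% of entries above it and 5.06% below −0.5. At the lower threshold of 0.3, EHF passed in the mir-141 knockout (9.52% of entries above, 8.72% below −0.3). In the mir-200c knockout ELF3 was above 0.3 and ESRP2 below −0.3, as were 18.9% and 19.5% of entries. PRSS8, ELF3 and EHF were above 0.3 in the double knockout, beside 14.9% of entries above and 15% below −0.3, and none reached 1 (1.53% above, 0.746% below −1). In set 2 as listed, PRSS8 in the double knockout was the 1 ratio beyond 0.5. Of all entries there, 7.44% were above 0.5 and 5.13% below −0.5 in the mir-141 knockout, 5.88% and 4.5% in the mir-200c knockout and 8.89% and 7.67% in the double knockout. With 1 clone per group and set these single values have no replicate check, and fewer cells of a type and less RNA per cell cannot be told apart in bulk RNA.

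**Figure D1:**
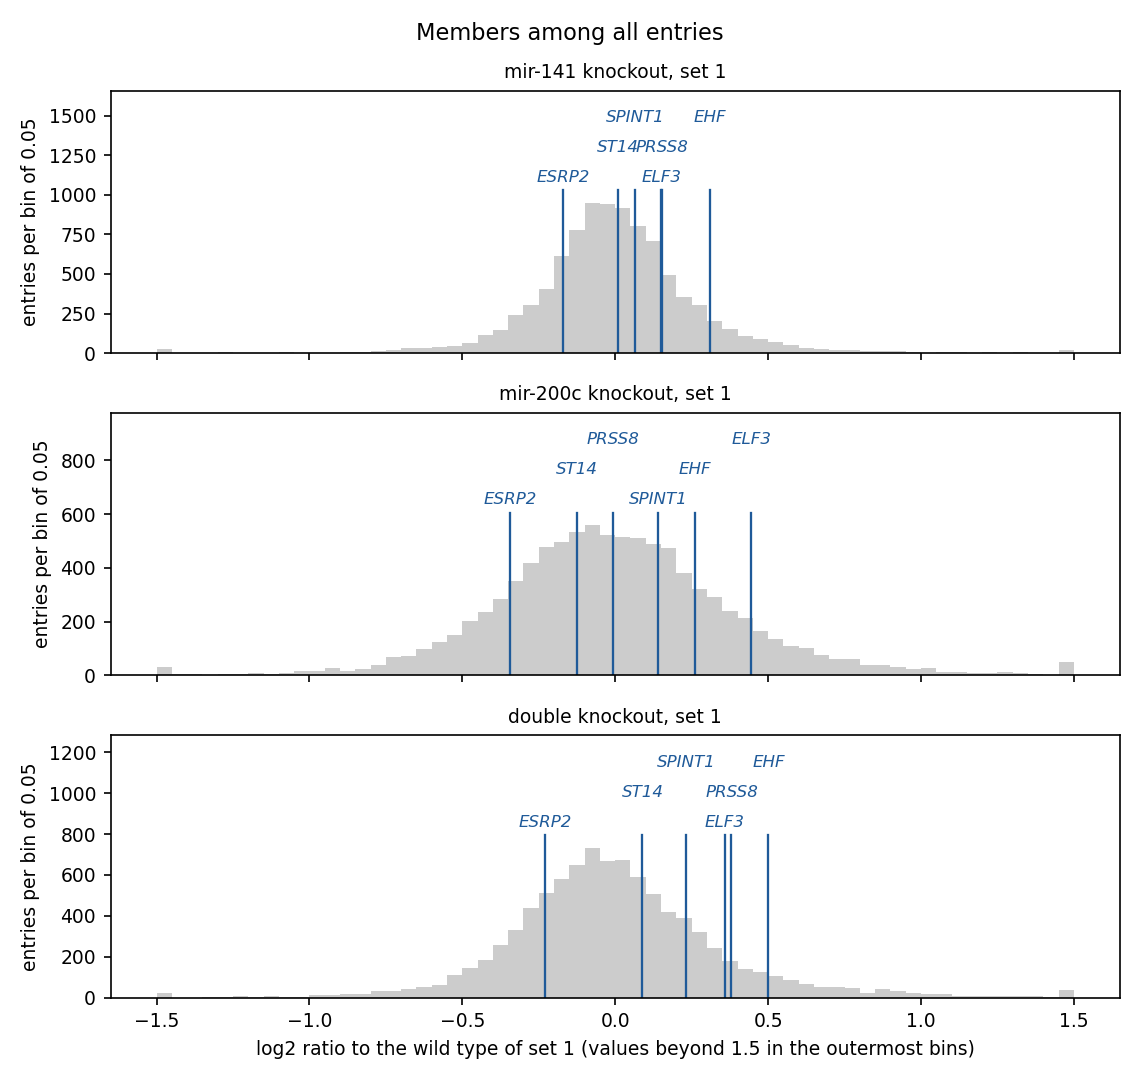
Histograms of the log2 ratios of all 9245 entries in the 3 clones of set 1 (grey, entries per bin of 0.05) with the 6 genes as blue lines. In the double knockout 5 of the 6 lines stand right of 0 and ESRP2 stands left of it at −0.23.

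ST14 (NM_021978; chromosome 11, 130159562 to 130210376, plus strand, GRCh38) encodes matriptase, which activates growth factor precursors and other proteases at the cell surface. It had log2 ratios of 0.01, −0.13 and 0.09 in set 1 clones lacking mir-141, mir-200c and both microRNAs, which put it at the 53.4th, 37.5th and 66.1st percentile of all entries. In set 2 the same knockouts were listed at −0.36, −0.40 and 0.25, in that order. In both sets the double knockout had the highest ratio of the 3 clones, and both single knockouts of set 2 were below the wild type.

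PRSS8 (NM_002773; chromosome 16, 31131433 to 31135762, minus strand) encodes prostasin, known for activating the epithelial sodium channel. Its ratios were 0.15, −0.01 and 0.38 in set 1 clones lacking mir-141, mir-200c and both microRNAs, at the 78.5th, 51.0th and 89.1st percentile. For the same knockouts it was listed at 0.46, 0.41 and 0.91 in set 2, at the 91.3rd, 91.6th and 96.9th percentile. It was above the wild type in 5 of 6 clones, all clones of set 2 as listed among them. The exception, the mir-200c knockout of set 1, was at −0.01, and at 0.01 after centring each column on its median. The clones of a set share 1 wild type, and the share of entries above 0 in 5 of 6 clones was not counted. The double knockout was the highest clone in both sets.

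SPINT1 (NM_003710; chromosome 15, 40844018 to 40858207, plus strand) encodes HAI-1, the inhibitor of both proteases. It had ratios of 0.06, 0.14 and 0.23 in set 1 clones lacking mir-141, mir-200c and both microRNAs. The same knockouts of set 2 were listed at −0.17, −0.18 and −0.46. All clones of set 1 were above their wild type and all clones of set 2 below theirs, and in both sets the double knockout was farthest from it. Of all entries, 24.9% were above 0 in all clones of set 1 and 32.9% below 0 in all clones of set 2. The share with both was not counted. The ratios of inhibitor and proteases did not follow one order. PRSS8 was above SPINT1 in the double knockout of set 1 (0.38 and 0.23) and, as listed, of set 2 (0.91 and −0.46). In the mir-200c knockout of set 1, PRSS8 (−0.01) was below SPINT1 (0.14). ST14 (0.09) was below SPINT1 (0.23) in the double knockout of set 1.

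ELF3 (NM_004433; chromosome 1, 202007945 to 202017188, plus strand) encodes an ETS factor of epithelial differentiation. It had ratios of 0.15, 0.45 and 0.36 in set 1 clones lacking mir-141, mir-200c and both microRNAs, at the 78.2nd, 88.9th and 88.2nd percentile. In set 2 it was listed at 0.26 without mir-141, 0.45 without mir-200c and −0.30 without both. The mir-200c knockout was the highest clone in both sets with nearly equal values, whereas the double knockout lay on opposite sides of the wild type.

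EHF (NM_012153; chromosome 11, 34621093 to 34661057, plus strand) encodes a close relative of ELF3. Its ratios of 0.31, 0.26 and 0.50 in set 1 clones lacking mir-141, mir-200c and both microRNAs put it at the 91.0th, 78.3rd and 92.7th percentile. These were the highest ratios among the 6 genes in the mir-141 and double knockout of that set. In set 2 EHF was listed at −0.13 without mir-141, −0.18 without mir-200c and 0.12 without both, so only the double knockout was above the wild type there.

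ESRP2 (NM_024939; chromosome 16, 68229111 to 68238102, minus strand) was the one gene of the 6 below the wild type in all clones of set 1, with −0.17, −0.34 and −0.23 in clones lacking mir-141, mir-200c and both microRNAs. These values lay at the 20.1st, 16.1st and 22.0th percentile. Set 2 listed it at −0.40, 0.31 and 0.24 in the same order, where the mir-200c and double knockout were above the wild type. The 3' end of ESRP2 overlaps that of NFATC3 on the other strand by 149 bases, and NFATC3 had 0.14, 0.05 and 0.06 in set 1. No source used here says whether reads were counted by strand. ELF3, SPINT1 and PRSS8 also overlap annotated antisense RNAs that have no entry, and reads of these could not be told apart.

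**Figure D2:**
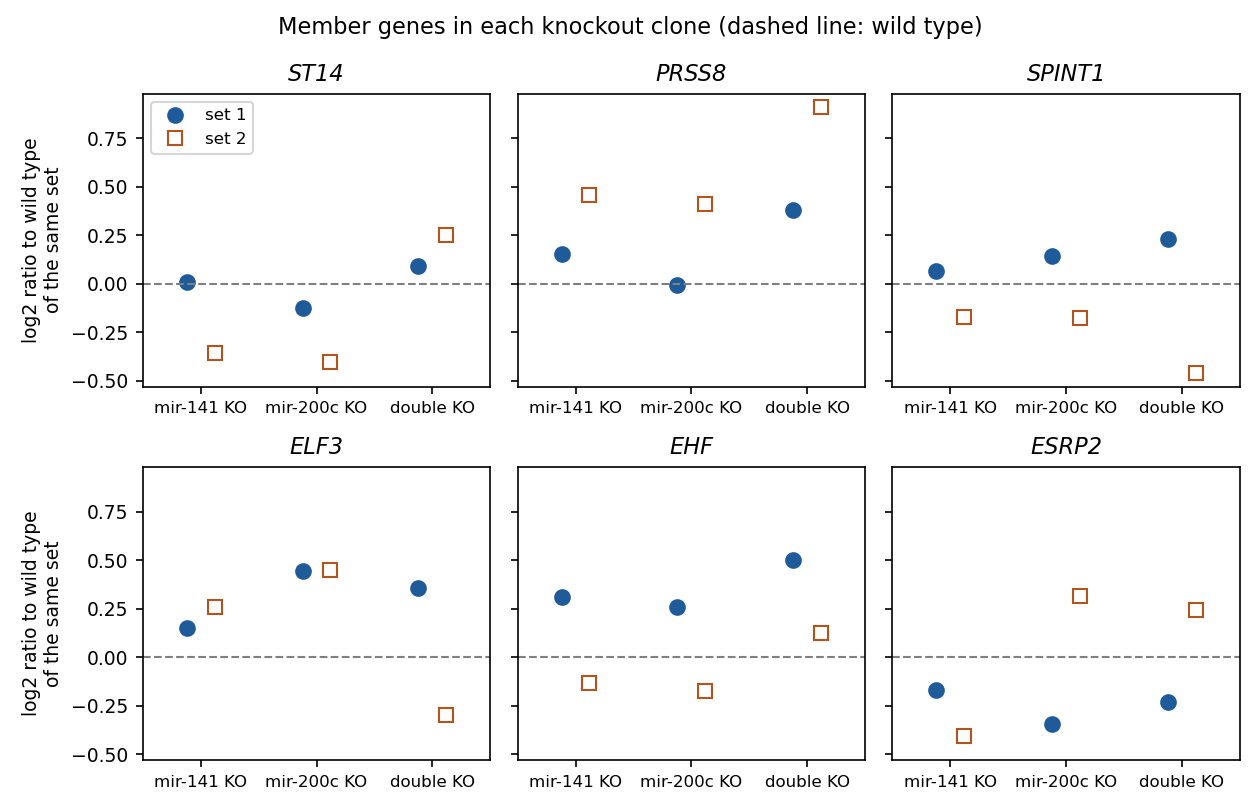
Log2 ratio of each gene over its same-set wild type (dashed line at 0) in the 3 knockouts, with filled circles for set 1 and open squares for set 2, 1 clone per point. PRSS8 reaches 0.91 in the double knockout of set 2, and SPINT1 lies above 0 in set 1 and below 0 in set 2 in every clone.

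SPINT1, ELF3 and EHF were above the wild type and ESRP2 below it in all 3 clones of set 1. These clones share 1 wild type, and 24.9% of entries were above 0 and 29.9% below 0 in all of them. No gene of the 6 kept one sign in all 6 clones, which 6.65% of entries did above 0 and 10.4% below. The medians of chromosome neighbours were nearer 0 than the largest ratios of set 1. A median over 20 entries tends towards 0, and these ratios were picked for their size. Whether a shift was particular to the gene was not tested. The 20 nearest entries of EHF had a median of 0.06 in the double knockout, where EHF had 0.50, and those of PRSS8 had −0.05, where PRSS8 had 0.38. The median of the 20 neighbours of ELF3 was 0.04 without mir-200c, beside 0.45 for ELF3, and those of ESRP2 had 0.04 beside −0.34. For SPINT1 in the mir-200c knockout, gene and neighbours were close, at 0.14 and 0.13.

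The wild type drops out when one clone of a set is subtracted from another. With 1 clone on each side, the added loss and other differences between the clones cannot be told apart. The log2 difference double minus mir-141 knockout of set 1 compares clone 55 with clone 23. It was 0.23 for PRSS8, 0.21 for ELF3, 0.19 for EHF, 0.17 for SPINT1, 0.08 for ST14 and −0.06 for ESRP2. The median of 0.18 compares with −0.02 over all entries, and all 6 values lay between the 5th and the 95th percentile of entries, −0.39 and 0.46. The difference double minus mir-200c knockout of set 1 compares clone 55 with clone 11. It was 0.39 for PRSS8, 0.24 for EHF, 0.22 for ST14, 0.12 for ESRP2, 0.09 for SPINT1 and −0.09 for ELF3. These values again lay within the corresponding range of −0.52 to 0.52. No gene exceeded 0.5 in either difference of set 1, where 4.2% of entries were above 0.5 and 2.23% below −0.5 in the contrast with the mir-141 knockout and 5.4% and 5.43% in that with the mir-200c knockout. The double knockout of set 1 was thus above both single knockouts for ST14, PRSS8, SPINT1 and EHF, and between them for ELF3 and ESRP2. In set 2 as listed, PRSS8 gave 0.45 and 0.50 for the same differences, ST14 0.61 and 0.65, and EHF 0.26 and 0.30. ELF3 gave −0.56 and −0.75 and SPINT1 −0.29 and −0.28, while ESRP2 gave 0.65 and −0.07. Beyond 0.5 in the contrast with the mir-141 knockout were ST14, ESRP2 and ELF3 (6.27% of entries above, 5.6% below), and in that with the mir-200c knockout ST14, PRSS8 and ELF3 (4.64% above, 3.36% below). PRSS8, ST14 and EHF were higher in the double knockout than in either single knockout in set 1 and, as listed, in set 2. The share of all entries with that pattern, in set 1 alone or in both sets, was not counted, and the pattern was not tested. Across all entries the double knockouts of set 1 and set 2 had a Pearson correlation of 0.00221.

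**Figure D3:**
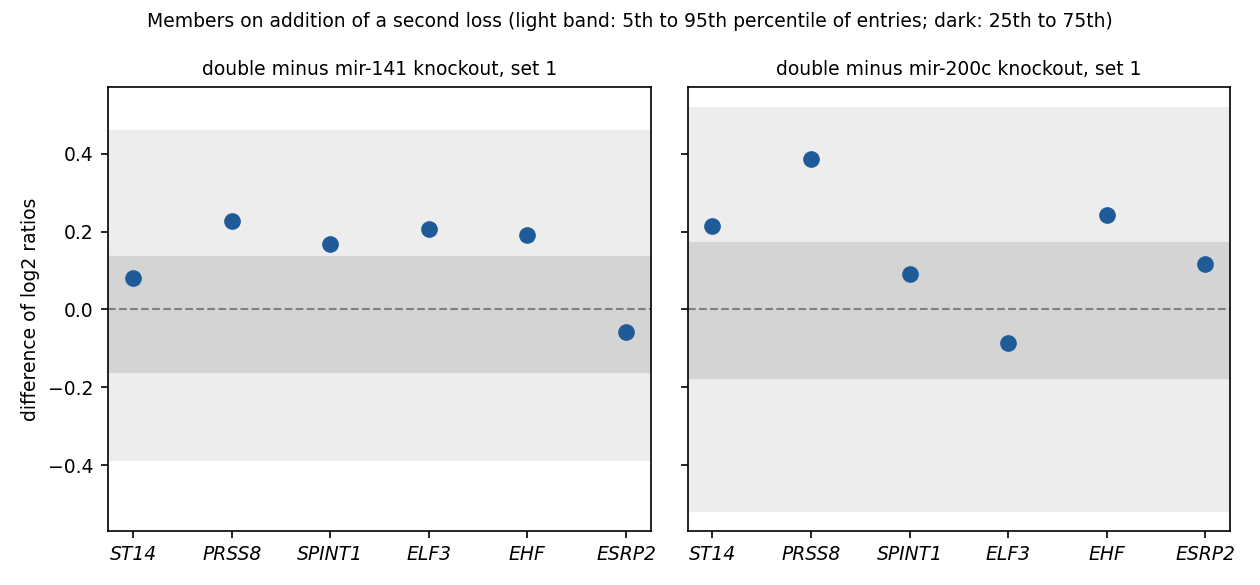
Difference of log2 ratios between the double knockout and the mir-141 knockout (left) or the mir-200c knockout (right) of set 1 for the 6 genes (points), over the 5th to 95th percentile (light) and the interquartile range (dark) of all entries. PRSS8 has the highest value in each panel, 0.23 and 0.39, and no point leaves the light band.

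Over both sets, limma called 0 of the 6 genes at an adjusted p under 0.05 in each of 6 comparisons: each knockout against wild type, loss of either microRNA across both backgrounds, and the interaction of both losses. It also called 0 entries in all (0%). At an unadjusted p under 0.05 there were 248 entries (2.68%) for the mir-141 knockout, 499 (5.4%) for the mir-200c knockout, 581 (6.28%) for the double knockout, 476 (5.15%) for loss of mir-141, 821 (8.88%) for loss of mir-200c and 157 (1.7%) for the interaction. Among the 6 genes, PRSS8 reached that level in 3 of the comparisons and ST14 in 1.

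PRSS8 averaged 0.65 ± 0.17 in the double knockout against wild type (mean over 2 clones ± SE from limma), above the wild type in 2 of 2 clones, with an unadjusted p of 0.00771 and a limma adjusted p of 0.740. Loss of mir-141 across both backgrounds gave 0.38 ± 0.11 (adjusted p = 0.901, limma) and loss of mir-200c 0.27 ± 0.11 (adjusted p = 0.554, limma). These comparisons share libraries and do not count as separate evidence. ST14 had an interaction of 0.61 ± 0.25 (adjusted p = 1.00, limma), meaning that the ratio of the double knockout was above the sum of the ratios of both single knockouts. The interaction of ELF3 had the opposite sign, −0.62 ± 0.30, with an unadjusted p of 0.0793 and a limma adjusted p of 1.00. It was −0.97 without clone 55, the double knockout of set 1, and −0.27 without clone 61, that of set 2.

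In the mir-200c knockout ELF3 averaged 0.45 ± 0.21, and its limma adjusted p was 0.793. Both clones had nearly equal ratios for ELF3. Across all entries, though, the mir-200c knockouts of set 1 and set 2 had a Pearson correlation of 0.0105. EHF averaged 0.31 ± 0.17 in the double knockout (limma adjusted p = 0.743), and SPINT1 averaged −0.11 ± 0.19 there. Without the wild type of set 1 the estimate of EHF was 0.10, and without that of set 2 it was 0.52. That of SPINT1 was −0.37 without clone 55 and 0.14 without clone 61, and −0.32 and 0.09 without the wild type of set 1 and of set 2. ESRP2 averaged −0.29 ± 0.24 without mir-141, −0.02 ± 0.24 without mir-200c and 0.01 ± 0.24 without both. The mir-141 estimate of ESRP2 was −0.59 without clone 23 (set 1) and 0.02 without clone 10 (set 2), and its mir-200c estimate 0.27 without clone 11 (set 1) and −0.30 without clone 29 (set 2). Its estimate for the double knockout was 0.17 without clone 55 and −0.16 without clone 61. Without the wild type of set 1 these ESRP2 estimates were −0.14 in mir-141 knockouts, 0.13 in mir-200c knockouts and 0.16 in double knockouts, and without that of set 2 they were −0.44, −0.17 and −0.14. Over the 6 genes the limma adjusted p was 0.998 in the mir-141 knockout and ranged from 0.793 to 0.992 in the mir-200c knockout and from 0.740 to 0.994 in the double knockout.

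**Figure D4:**
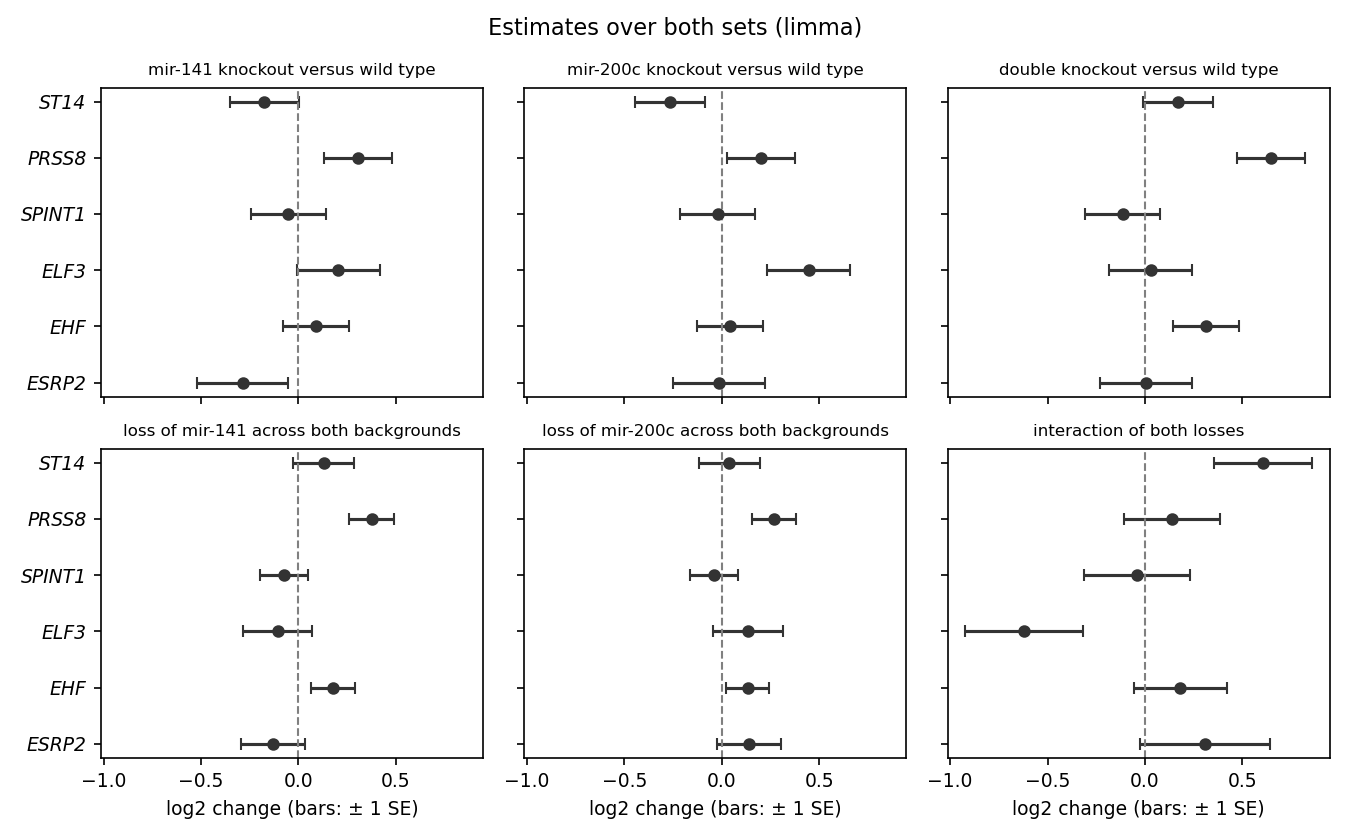
Log2 change of each gene over both sets (points) with 1 SE on each side (bars) in the 6 comparisons fitted with limma. PRSS8 in the double knockout (0.65 ± 0.17) stands farthest from 0 relative to its SE, and 0 estimates passed the adjusted threshold.

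Related genes were taken from 8 lists of pathway genes, in which limma called 0 genes in either direction in all 6 comparisons. Every triplet of their values follows the order mir-141, mir-200c and double knockout, in set 1 unless set 2 is named. For the counts beyond 0.5 in these lists, 3.55%, 9.05% and 7.36% of all entries were above 0.5. Below −0.5 were 2.63%, 7.92% and 5.06%. Of 20 other surface serine proteases, 5 had an entry, with medians of −0.09, 0.12 and 0.60 in clones lacking mir-141, mir-200c and both microRNAs. In the double knockout 3 of the 5 were above 0.5 and none below −0.5. TMPRSS4 had 0.27, 0.34 and 1.26, TMPRSS2, known as an androgen-regulated protease in prostate, 0.60, −0.03 and 0.99, and PRSS22 (tryptase epsilon) −0.12, 0.55 and 0.59. PRSS27 had −0.31, −0.53 and 0.39. In set 2 as listed, the medians of this list were −0.12, 0.01 and −0.12. In the double knockout of that set PRSS22 had 1.79 and TMPRSS4 0.22, and TMPRSS2, PRSS27 and TMPRSS13 had −0.18, −0.15 and −0.12.

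Serpins and other protease inhibitors had medians of 0.10, 0.74 and 0.61 in set 1 over 9 of 25 genes. Above 0.5 were 3, 6 and 5 of them, beside 3.55%, 9.05% and 7.36% of all entries, and none was below −0.5. SERPINB6 had 0.95, 1.31 and 0.73, SERPINA3 (antichymotrypsin) −0.002, 0.96 and 1.09, and SERPINH1, a collagen chaperone rather than an inhibitor, 0.29, 0.81 and 0.86. SPINT2, a Kunitz inhibitor related to SPINT1, had 0.10, 0.48 and 0.16. In set 2 as listed the medians of this list were −0.11, −0.07 and −0.24. Above 0.5 were 1, 0 and 0 of its genes there, and below −0.5 were 0, 1 and 2.

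Substrates of the proteases and their partners were measured for 7 of 18 genes, with medians of −0.01, 0.10 and 0.15 in set 1 clones lacking mir-141, mir-200c and both microRNAs and 1 gene above 0.5 in each. That gene was PLAUR, the urokinase receptor, with 0.93, 1.05 and 1.64. In set 2 as listed, PLAUR had 0.06, 0.73 and −0.15, and the medians of this list were 0.06, 0.06 and 0.11. EPCAM, a surface protein cleaved by matriptase, had 0.08, 0.06 and −0.05, and SCNN1A, a subunit of the sodium channel that prostasin activates, had 0.15, −0.37 and −0.09.

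Beside ELF3 and EHF, 13 of 25 other ETS factors had an entry, with medians of −0.04, −0.04 and 0.07. Above 0.5 were 2, 1 and 2 of them and below −0.5 none, 3 and none. ETV4 had 0.30, −1.07 and 0.52, ETV6 0.40, 0.61 and 0.57, the repressor ERF 0.57, 0.17 and 0.32 and ELK1 0.55, 0.23 and 0.24. In set 2 as listed, ETV4 had 0.72, 0.59 and 0.73 and ETV6 −0.11, −0.06 and 0.17. ERF had 0.19, 0.20 and 0.17 there, and ELK1 −0.11, 0.22 and −0.0003. The set 2 medians of these ETS factors were −0.09, 0.24 and 0.17. Epithelial factors outside the ETS family were measured for 12 of 16 genes, with medians of −0.01, −0.10 and 0.07. OVOL2, a repressor of mesenchymal genes, had 0.50, 0.48 and 0.61, and GRHL3 had 0.35, 0.59 and −0.01. KLF5 lay at −0.71, −0.47 and −0.73 and GRHL1 at −0.55, −0.43 and −0.38. In set 2 as listed, OVOL2 had −0.06, −0.38 and −0.38 and GRHL3 −0.07, −0.11 and −0.09. KLF5 had −0.24, 0.01 and 0.07 there, and GRHL1 −0.12, −0.13 and −0.19. The set 2 medians of these epithelial factors were −0.10, −0.14 and −0.24. Of 12 repressors of epithelial genes 5 had an entry, with medians of −0.08, −0.34 and −0.10, and SNAI1 had −0.18, −0.85 and −0.15. In set 2 as listed, SNAI1 had −0.28, −0.33 and −0.06, and the medians of this list were −0.15, 0.0045 and 0.09. ZEB1 and ZEB2 were not analysed here.

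ESRP1, the paralogue of ESRP2, had −0.07, −0.18 and −0.31 in set 1 clones lacking mir-141, mir-200c and both microRNAs. It was below the wild type in each, as ESRP2 and 29.9% of all entries were. In set 2 as listed, ESRP1 had 0.12, 0.25 and 0.22, above the wild type in each. The 13 of 17 other splicing regulators with an entry had medians of −0.11, −0.18 and −0.13. QKI, which favours mesenchymal exons, stood apart in set 1 with −0.19, 0.93 and 0.67, and TRA2B had −0.11, −0.55 and −0.40. In set 2 as listed, QKI had 0.14, −0.004 and 0.10 and TRA2B −0.89, 0.32 and 0.16. The set 2 medians of these splicing regulators were −0.04, −0.004 and 0.10. Genes whose exons ESRP proteins regulate were measured for 10 of 11, with medians of −0.03, 0.18 and 0.12. ENAH, an actin regulator, had the largest ratio of this list in set 1, with −0.03, 0.56 and 0.24. In set 2 as listed, ENAH had −0.05, 0.06 and 0.04. These are gene totals, and exon use could not be read from them.

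**Figure D5:**
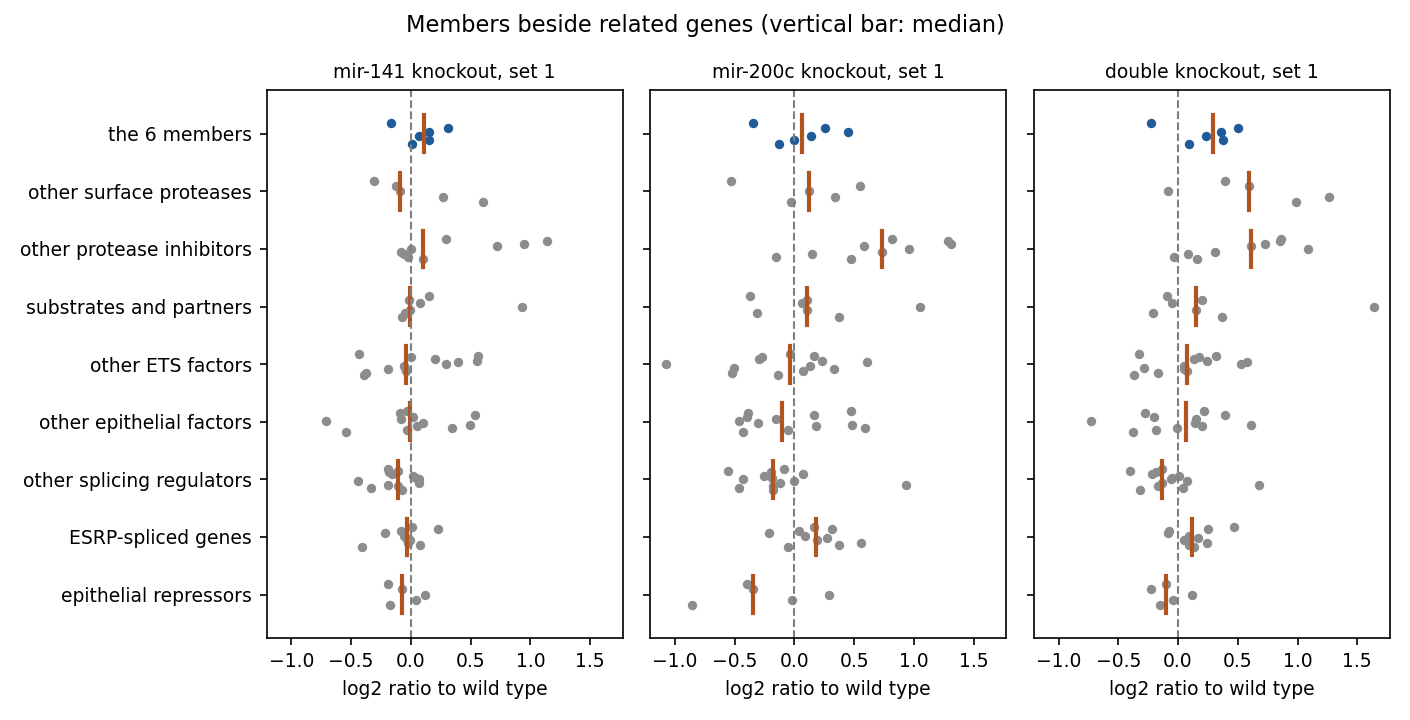
Log2 ratio to wild type in the 3 clones of set 1 for the 6 genes (blue points) and for 8 lists of related genes (grey points), with the median of each list as a vertical bar. The list of other protease inhibitors has medians of 0.74 in the mir-200c and 0.61 in the double knockout, beside 0.07 and 0.30 for the 6 genes.

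The entries nearest to each gene over the 3 ratios of set 1 (Euclidean distance on the log2 scale) were, in order of closeness, KDM6B, PIKFYVE and C15orf41 for PRSS8, SPTAN1, ACAA1 and RNF19A for ELF3, and ZNF71, FUOM and DNAJB9 for EHF. For ST14 they were CYP2J2, SDF4 and CIT, for SPINT1 ZCCHC3, MPHOSPH6 and TRAF4, and for ESRP2 AGK, TMEM259 and MRPL13. Distances lay between 0.013 (CYP2J2) and 0.0698 (C15orf41). Within 0.1 of PRSS8 lay 16 entries and within 0.1 of EHF 21, but 146 were as close to ST14, 120 to ESRP2, 108 to SPINT1 and 47 to ELF3. The profiles of ST14, SPINT1 and ESRP2 were thus common ones among the entries of this set.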

How the data were processed

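Per the labels' protocols, mRNA was selected on oligo(dT) beads, fragmented, ligated to adaptors and sequenced on a HiSeq instrument. The submitters' processing notes name TopHat2 and GRCh37.p10. The sources used here do not say how reads were counted or scaled, or which entries were dropped. The authors deposited 6 columns of log2 ratios, 1 per knockout clone, taken over the same-set wild type. Depth is unknown, so no count test, level filter or depth interval was possible.

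Linear models were fitted with limma 3.58.1 (R 4.3.3) to all 9245 entries, with each wild type at 0 and the experimental set as a block, which the ratios build in: 4 groups (3 residual degrees of freedom) or both losses added (4). P-values were adjusted by Benjamini-Hochberg over all entries and called under 0.05. The fits were run on simulated data with known changes, where only the mean estimate was checked. The share of such changes that was called is not given here. P-values rest on how far the differences between groups disagree between the sets, since the block removes the overall difference between sets. This spread was pooled over the groups and moderated by limma. No source says whether libraries came from separate cultures. The labels name the shared set, so it pairs the libraries. For single clones, a log2 ratio beyond 0.5 was counted. Percentiles give the share of entries below a value. From related lists, up to 4 genes beyond 0.5 in set 1 are named, by largest size, with others added where a sentence needs them. One gene that this rule names is not reported here. The genes, lists and rules were chosen with earlier results of these data known. Entries were matched to GENCODE 29 (GRCh38) for 9226 of 9245, 9011 by accession. Alternatives were median centring, robust moderation, no block, and leaving out each library or gene.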

Additional observations from a re-analysis of the deposited data

Results flagged for a closer look

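SPINT1 lay above the wild type in all 3 clones of set 1 and below it in all 3 clones of set 2. Its mean ratio was 0.15 in set 1 and −0.27 in set 2, a difference of 0.415 (set 1 minus set 2). Of all entries, 24.9% were above 0 in all clones of set 1 and 32.9% below 0 in all clones of set 2. The share of entries with opposite signs in the sets was not counted. The difference was not tested, and the clones of a set share 1 wild type.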

How the results depend on the processing

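All 6 counts of called genes among the 6 were 0, and stayed 0 with each column centred on its median, robust moderation, no replicate block and each of the 8 libraries left out (lowest 0, highest 0). No entry held an exact 0, so leaving such entries out changed nothing. Over all entries, leaving out a library gave at most 2 calls. Without the replicate block, the estimates of PRSS8 were 0.65 in the double knockout (limma adjusted p = 0.712), 0.35 for loss of mir-141 (0.980) and 0.25 for loss of mir-200c (0.674). With libraries left out in turn they ranged from 0.44 to 0.85, from 0.30 to 0.47 and from 0.20 to 0.37, and the interaction of ST14 from 0.42 to 0.79. Limma adjusted p over all alternatives ranged from 0.444 to 0.998 for PRSS8 in the double knockout, 0.653 to 0.997 and 0.549 to 0.776 for the losses, and 0.954 to 1.00 for ST14.

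Medians of the 6 genes with set 2 in place of set 1 were −0.15 without mir-141, 0.0686 without mir-200c and 0.18 without both, and 0.35 and 0.11 for double minus mir-141 and double minus mir-200c knockout. The set 1 median of the mir-200c knockout (0.07) was 0.0833 after centring, 0.14 without ST14, PRSS8 or ESRP2 and −0.00779 without SPINT1, ELF3 or EHF. That of double minus mir-200c knockout (0.17) was 0.12 without ST14, PRSS8 or EHF and 0.22 (0.215) without SPINT1, ELF3 or ESRP2. A threshold of 0.3 gave 1, 2 and 3 genes in set 1 clones lacking mir-141, mir-200c and both, and a threshold of 1 gave 0 in the double knockout. The count of genes with a seed match was 0 for 7 bases and therefore also 0 for 8, since the longer match contains the shorter. Matches shorter than 7 bases were not searched. The cause of these shifts was not tested. Unknown depth limits all of these values.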
